A study of Mus musculus with 10 samples.

Results

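*Cd79a*, *Cd79b*, *Ms4a1*, *Pax5*, *Cd22*, *Blnk*, *Jchain*, *Mzb1* and *Xbp1* are genes of the B cell lineage and of the plasma cells that it gives rise to. They were taken by their symbols and make up 9 of the 53974 genes in the RNA-seq table. After a filter on low values (a level of at least 1 TPM in at least 3 of 6 libraries), 8 of the 9 were among the 17555 genes tested, and each of the 8 reached 1 TPM in all 6 libraries. TPM is a transcript abundance per unit of length, scaled to a fixed sum per library, so levels of different genes can be compared on it. *Pax5* did not pass the filter. Of the 16600 regions in the ATAC-seq comparison, 2 lay within 1000 bp of an end of the 9 genes, at *Xbp1* and *Jchain*.

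The libraries came from retinas of C57BL/6 mice, labelled 8-10 weeks old, in which both copies of *Arid1a* are floxed (*Arid1a* fl/fl), a state that the controls share. The eyes received intravitreal AAV2-GFP (label WT, genotype label *Arid1a* fl/fl) or AAV2-Cre (label cKO, genotype label *Arid1a* del/del), all optic nerves were crushed (ONC) 2 weeks later, and cells were taken 3 days after ONC. Both viruses use the CMV promoter, which is not restricted to retinal ganglion cells (RGCs), and 4 to 5 retinas were pooled per sample. The paper lists a higher titer for AAV2-GFP than for AAV2-Cre, so virus titer differs along with the label. It proposes that its immune and viral infection terms may be linked to the titers and the operations. The part of the titer in the values below was not tested. RNA-seq had 3 libraries per label and ATAC-seq, which measures open chromatin, had 2 per label. Cells were sorted as DAPI-negative and stained for Thy1.2, a surface protein of RGCs and also of mouse T cells.

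B cells carry a surface immunoglobulin, the B cell receptor, whose signal runs through the CD79A and CD79B chains, and plasma cells are their end stage, which secretes immunoglobulin. A plasma cell no longer expresses *Pax5* or *Ms4a1*, and it expands its endoplasmic reticulum under the control of XBP1. Both are rare in a healthy retina.

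The libraries did not show a pure RGC profile. The RGC transcription factor *Pou4f2* was listed at 0 in 5 of 6 RNA-seq libraries and *Pou4f1* ranged from 0.0838 to 3.60 TPM, whereas *Thy1* lay between 51.9 and 129 TPM. The 10 rod markers summed to 12484 to 17482 TPM in the libraries labelled WT and to 25955 to 48724 TPM in those labelled cKO. *Arid1a* had 18.8, 11.7 and 14.1 TPM under the label WT and 18.8, 27.9 and 25.0 TPM under the label cKO (log2 fold change 0.66, standard error 0.28; limma, adjusted p = 0.274). TPM is given per gene and not per exon, so a transcript that lacks the floxed exons can still be counted. The RNA level therefore neither checks nor contradicts the deletion, and every direction below is given by label. Since TPM does not carry the number of reads, the counting error of a level cannot be given here.

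All 8 tested genes had lower means in the libraries labelled cKO, by between 1.57 times for *Xbp1* and 6.50 times for *Cd79b*. The libraries labelled WT also lay far apart, most of all for *Ms4a1* and *Mzb1*, and in the 4 genes whose labels overlapped (*Ms4a1*, *Cd22*, *Jchain* and *Mzb1*) replicate 2 labelled WT was the library that reached into the cKO range. None of the 8 passed the test at an adjusted p under 0.05 (limma on log2(TPM + 1), Benjamini-Hochberg over 17555 genes), where 0 genes (0%) of the whole table did so in this direction. At an unadjusted p under 0.05, 6 of the 8 were lower, beside 6.45% of all genes tested. In 4 of the 8, every library labelled cKO lay under every library labelled WT, beside 7.18% of all genes tested. The median log2 fold change was -1.63 for the 8 genes and 0.16 for all genes tested. All 8 log2 fold changes were below 0 with every library left out in turn, whereas 4 of the 8 were above 0 once the libraries were scaled to leukocyte markers, as given further on.

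**Figure D1:**
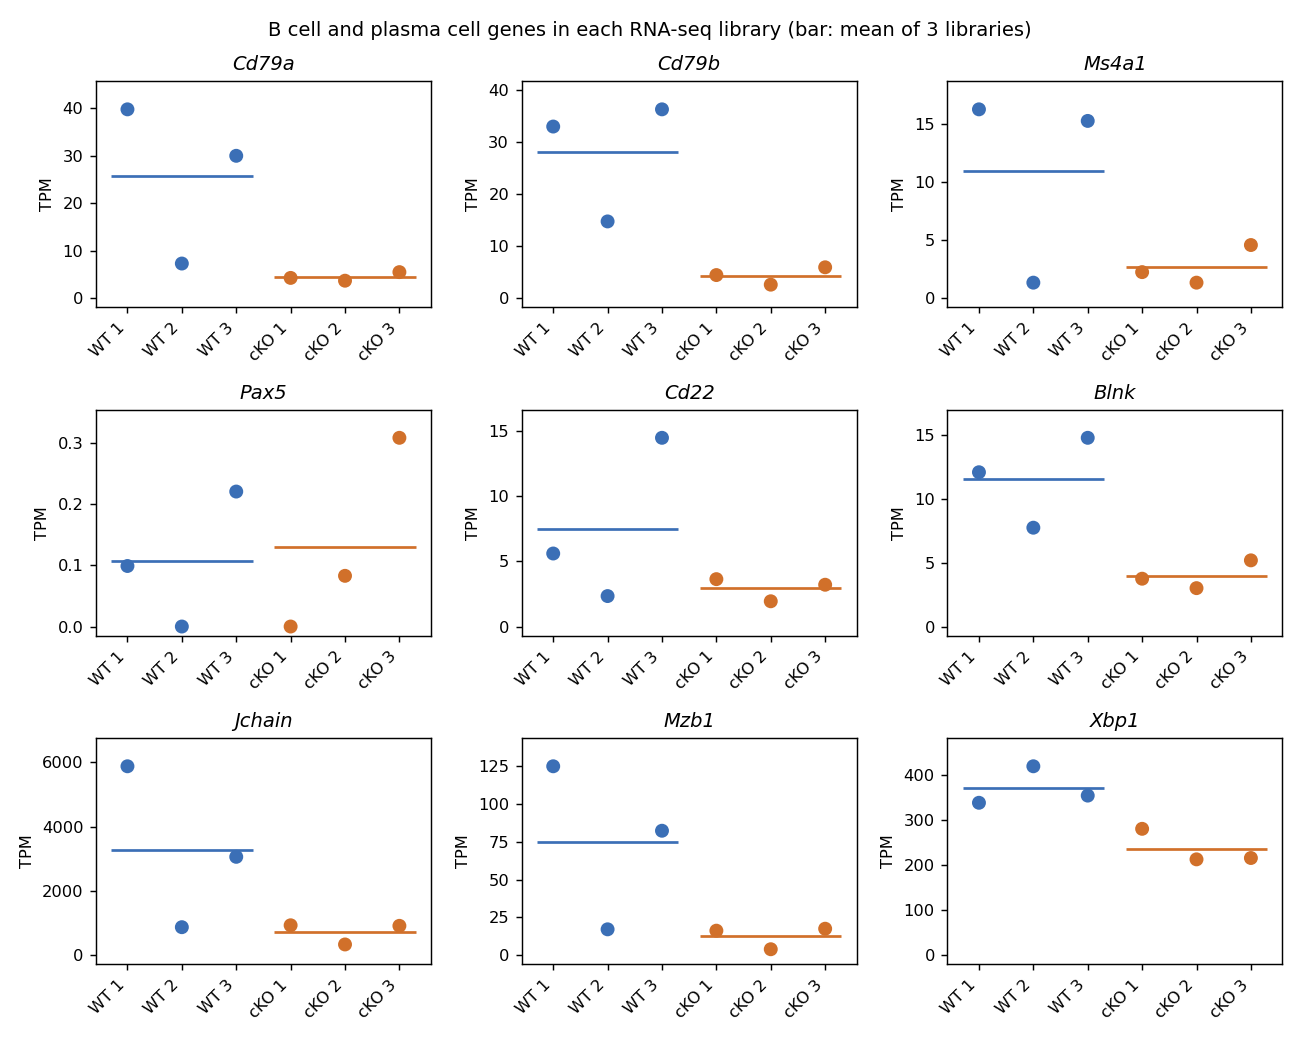
Level of each of the 9 genes (TPM, linear axis, a separate scale per gene) in the 3 libraries labelled WT (blue) and the 3 labelled cKO (orange), with the mean of each label as a bar. *Cd79a*, *Cd79b*, *Blnk* and *Xbp1* have no overlap between labels, replicate 2 of the label WT sits low for most genes, and *Pax5* stays under 0.31 TPM throughout.

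The gene with the largest difference encodes a signalling chain of the B cell receptor. *Cd79b* (chr11:106311341-106314562 on GRCm38.p6, as for all gene positions here) was at 32.9, 14.7 and 36.2 TPM in replicates 1, 2 and 3 of the label WT and at 4.41, 2.57 and 5.90 TPM in the same replicates of the label cKO. All 3 libraries labelled cKO lay below the lowest labelled WT, and the means were 27.9 ± 11.6 and 4.29 ± 1.67 TPM (SD, n = 3 each). The log2 fold change was -2.40 (standard error 0.43), the largest of the 8, with an adjusted p of 0.124 from limma. *Cd79a* (chr7:24897497-24901858), which encodes the partner chain, was at 39.8, 7.28 and 30.0 TPM under the label WT and at 4.25, 3.66 and 5.47 TPM under the label cKO. The labels did not overlap, but replicate 2 labelled WT was nearer to the cKO libraries than to the other WT libraries. For *Cd79a* the log2 fold change was -2.01 (standard error 0.59; limma, adjusted p = 0.163). The 2 chains form a dimer, and the ratio of *Cd79a* to *Cd79b* TPM ran from 0.497 to 1.43 over the 6 libraries, with both ends of that range in a replicate 2. The exact two-sided permutation test gave p = 0.1 for both genes, which is the smallest p that 3 libraries against 3 allow.

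*Blnk* (chr19:40928927-40994221), the adaptor that links the receptor to its downstream enzymes, was at 12.1, 7.75 and 14.8 TPM under the label WT and at 3.75, 3.01 and 5.19 TPM under the label cKO. Its groups did not overlap, and the spread within the label WT (a highest library 1.91 times the lowest) was small beside that of *Cd79a* (5.46 times). On the log2 scale the difference was -1.31 (standard error 0.34; limma, adjusted p = 0.139). *Cd22* (chr7:30865404-30880342), an inhibitory receptor that dampens the B cell receptor signal, was at 5.61, 2.34 and 14.5 TPM under the label WT and at 3.64, 1.94 and 3.21 TPM under the label cKO. Replicate 2 labelled WT lay below 2 of the 3 libraries labelled cKO, and a single library, replicate 3 labelled WT, carried most of the WT mean of 7.49 ± 6.30 TPM (SD, n = 3). The log2 fold change of *Cd22* was -0.86 (standard error 0.56) and the difference did not hold up against the spread (adjusted p = 0.453 from limma).

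*Ms4a1* (chr19:11249679-11266149), which encodes CD20 of mature B cells, was at 16.3, 1.33 and 15.3 TPM under the label WT and at 2.24, 1.33 and 4.58 TPM under the label cKO. Replicates 2 of both labels shared the lowest value shown, so the labels overlapped, and within the label WT the highest library stood 12.3 times above the lowest. On the log2 scale the difference was -1.32 (standard error 0.80; limma, adjusted p = 0.421), with p = 0.4 in the exact two-sided permutation test. With the replicate number as a block its unadjusted p in limma went from 0.145 to 0.0412, the 1 gene of the 8 that this brought under 0.05, at an adjusted p of 0.209. *Pax5* (chr4:44524748-44710694), the transcription factor that fixes B cell identity, was at 0.0991, 0 and 0.221 TPM under the label WT and at 0, 0.0830 and 0.309 TPM under the label cKO. A defining gene of B cells was thus near or at 0 in every library, including those in which *Cd79a* and *Cd79b* reached 30 TPM.

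The promoters of *Blnk* and *Cd22* are shown because they are the only 2 of the 6 available that hold a searched motif of a B lineage factor. The sequences, from RefSeq on GRCm38.p6, run from 250 bases before the gene's start to 50 bases after it and are written along the gene's strand. Promoters were matched for 6 of the 9 genes (*Cd79a*, *Pax5*, *Cd22*, *Blnk*, *Jchain* and *Xbp1*). In *Blnk* (chr19:40994172-40994471, minus strand) capitals mark the octamer of the OCT factors, which matches ATGCAAAT on the opposite strand, from -130 to -123 relative to the start. In *Cd22* (chr7:30878979-30879278, minus strand) capitals mark TCCC and GGGA with any 2 bases between them, the palindrome bound by EBF factors, from -49 to -40. The start that the promoter table uses for *Cd22* lies inside the gene's span and is not the end of the span from which its peak distances are counted.
*Blnk*: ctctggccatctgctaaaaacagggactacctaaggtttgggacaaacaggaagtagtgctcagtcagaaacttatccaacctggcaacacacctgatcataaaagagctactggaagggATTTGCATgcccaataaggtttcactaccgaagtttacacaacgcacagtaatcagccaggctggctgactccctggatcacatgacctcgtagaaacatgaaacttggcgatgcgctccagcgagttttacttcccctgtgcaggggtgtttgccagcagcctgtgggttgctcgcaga
*Cd22*: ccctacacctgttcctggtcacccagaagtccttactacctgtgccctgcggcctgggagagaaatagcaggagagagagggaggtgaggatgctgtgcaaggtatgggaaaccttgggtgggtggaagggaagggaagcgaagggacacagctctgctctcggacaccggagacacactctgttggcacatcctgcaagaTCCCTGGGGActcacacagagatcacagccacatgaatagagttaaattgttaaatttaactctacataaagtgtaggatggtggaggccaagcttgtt
Searched on both strands, the octamer occurred in 1.74% and the EBF palindrome in 0.904% of 32851 mouse promoters of this length. The ETS-type sequence GAGGAAGT (3.20% of promoters) and the X box core TGACGTGG of XBP1 (0.676%) were in none of the 6. Shorter or other ETS sites were not searched, so their absence is not shown. The short CCACG, which was in 32.8% of promoters, was in that of *Cd79a* alone. These matches are letters in a window and not measured binding.

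The plasma cell genes were far more abundant. *Jchain* (chr5:88519809-88527897), the chain that joins the subunits of secreted IgA and IgM, was at 5877, 866 and 3057 TPM under the label WT and at 925, 328 and 908 TPM under the label cKO. Replicate 2 labelled WT lay below 2 of the cKO libraries, so the labels overlapped, and the means were 3267 ± 2512 and 720.3 ± 339.9 TPM (SD, n = 3 each). On the log2 scale the difference was -1.94 (standard error 0.74; limma, adjusted p = 0.231; exact two-sided permutation p = 0.3). *Jchain* alone made up 0.589% of all TPM in replicate 1 labelled WT, where it ranked 9 among all genes by TPM, and 0.0330% in replicate 2 labelled cKO, where it ranked 405. *Mzb1*, an endoplasmic reticulum co-chaperone of immunoglobulin assembly, was at 125, 17 and 82.3 TPM under the label WT and at 16.1, 3.81 and 17.4 TPM under the label cKO. Its pattern over the libraries was that of *Jchain*, with an overlap at replicate 2 labelled WT and a span of 32.8 times, the widest of the 8. For *Mzb1* the log2 fold change was -2.32 (standard error 0.82; limma, adjusted p = 0.209).

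*Xbp1* stood apart from the rest. This factor of the unfolded protein response is needed by plasma cells but is also expressed in most other cells. It was at 339, 420.3 and 355 TPM under the label WT and at 281, 213 and 216 TPM under the label cKO. The labels did not overlap, and the highest library was 1.97 times the lowest. Replicate 2 labelled WT, the lowest WT library for the other 7 genes, was the highest of all 6 for *Xbp1*. On the log2 scale the difference was -0.65 (standard error 0.21; limma, adjusted p = 0.186), on means of 371 ± 43.2 and 237 ± 38.4 TPM (SD, n = 3 each).

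**Figure D2:**
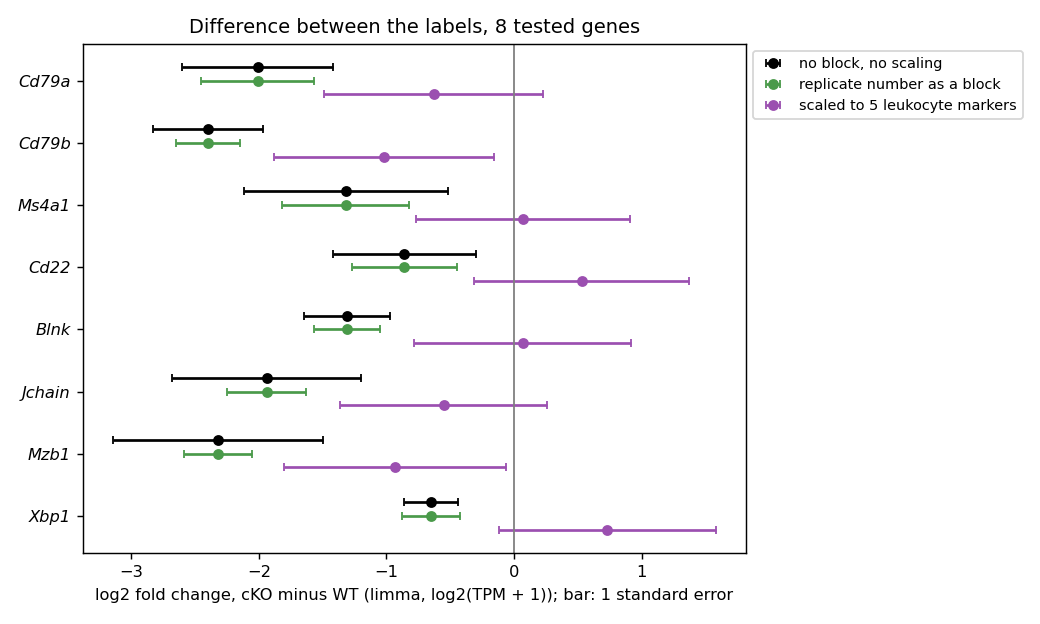
Log2 fold change, cKO minus WT, of the 8 tested genes from limma on log2(TPM + 1), with 1 standard error to each side: as tested (black), with the replicate number as a block (green) and after scaling each library to 5 leukocyte markers (purple). Without scaling all 8 points lie below 0, from -2.40 to -0.65. After leukocyte scaling *Ms4a1*, *Cd22*, *Blnk* and *Xbp1* lie above 0 and the intervals of *Cd79b* and *Mzb1* stay below it.

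The other 7 tested genes varied together over the libraries. Pearson's r of log2(TPM + 1) between pairs of them was 0.76 to 0.99 over the 6 libraries, and 0.28 to 0.77 between *Xbp1* and the others. These values are a description: the points share the label difference and the scaling to a fixed sum. Replicate 2 labelled cKO was the lowest of the 6 libraries for 7 of the 8 genes, all but *Ms4a1*, and it was the lowest for 11.8% of all genes tested. Among the libraries labelled WT, replicate 2 was the lowest for 7 of the 8, all but *Xbp1*, and for 30.2% of all genes tested. Replicate 1 labelled WT was the highest library for *Cd79a*, *Ms4a1*, *Jchain* and *Mzb1*, and replicate 3 labelled WT for *Cd79b*, *Cd22* and *Blnk*.

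Some results turn on these libraries. Without replicate 2 labelled WT, through which the 4 overlapping genes overlapped, all 8 genes had no overlap between the labels, beside 11.7% of all genes tested at this smaller size, and the median log2 fold change was -2.49. Without replicate 2 of both labels, a choice made after the data were seen, it was 8 of 8 beside 13.6% of all genes tested. Without replicate 2 labelled cKO, 3 genes (*Cd79a*, *Cd79b* and *Blnk*) kept an unadjusted p under 0.05 in limma, against 6 with it. Over all genes tested, the share lower at this p was 3.97% without that library and 6.45% with it. Adjusted p-values of the 8 genes stayed above 0.05 in all of these.

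The mean of the standardised log2(TPM + 1) of the 8 genes was 1.05, -0.10 and 1.13 in replicates 1, 2 and 3 labelled WT and -0.50, -1.13 and -0.44 in those labelled cKO. The 5 other named genes closest to it over the 6 libraries were *Cd6* (r = 0.9994), *Cd38* (0.9985), *Lcp1* (0.9981), *Tigit* (0.9960) and *Rcsd1* (0.9952). *Cd6* and *Tigit* are receptors best known from T cells, *Cd38* is a surface enzyme of B, plasma and other immune cells, and *Lcp1* is the plastin of leukocytes. *Cd6* was at 96.9, 31.2 and 104 TPM under the label WT and at 21.4, 11.5 and 21.0 TPM under the label cKO. An r over 0.95 was reached by 358 of 13982 named genes (2.56%), so these 5 were not alone in following the profile.

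The 2 most abundant immunoglobulin RNAs had the library pattern of *Jchain*, while *Iglc1* and *Ighg1* of the list did not. *Ighg2c* had a like pattern, at 1023, 81.8 and 538 TPM under the label WT and at 69.1, 6.58 and 84.8 TPM under the label cKO. *Igkc*, the constant region of the kappa light chain, was at 54204, 8579 and 28864 TPM under the label WT and at 9206, 2248 and 8399.9 TPM under the label cKO. It was the most abundant gene of the whole library in replicates 1 and 3 labelled WT, with 5.44% and 2.89% of all TPM, and made up 0.226% in replicate 2 labelled cKO. *Igha*, the heavy chain of IgA, was at 8182, 1107 and 4532 TPM under the label WT and at 1701, 366 and 1411 TPM under the label cKO. Neither passed the test (log2 fold changes of -2.09 and -1.85, adjusted p = 0.236 and 0.302 from limma). *Iglc1*, a lambda light chain, was at 568, 2.47 and 48.2 TPM under the label WT and at 254, 180.3 and 9.18 TPM under the label cKO, and *Ighg1* had its lowest library, 0.430 TPM, in replicate 2 labelled WT. *Igha* exceeded *Ighm*, the heavy chain of IgM, by 7.87 to 81.3 times over the 6 libraries.

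The ratio of *Jchain* to *Igkc* TPM was 0.108, 0.101 and 0.106 under the label WT and 0.101, 0.146 and 0.108 under the label cKO. It therefore varied by 1.45 times over libraries between which *Jchain* itself varied by 17.9 times. *Jchain* over *Igha* varied by 1.65 times, and *Mzb1* over *Jchain* by 2.32 times. *Jchain* over *Cd79b*, a plasma cell gene against a B cell receptor chain, ran from 59.1 to 210.0, and *Ms4a1* over *Cd79b* varied by 8.57 times. *Igkc*, *Igha* and *Jchain* RNA were thus in a nearly fixed proportion. *Cd79a* over *Cd79b* varied by 2.87 times, not far from *Mzb1* over *Jchain*. The widest ratios were *Xbp1* over *Jchain* (11.3 times) and *Igha* over *Ighm* (10.3 times), on genes that stayed at 22.2 TPM or more. *Jchain* over *Cd79b* and *Ms4a1* over *Cd79b* involve genes of low level: *Cd79b* fell to 2.57 TPM and *Ms4a1* to 1.33 TPM. At such levels the counting error, which cannot be given here, can move a ratio. These ratios were chosen after their values were seen, and no test was run on them. In bulk samples, fewer cells of a type and less RNA per cell cannot be told apart.

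**Figure D3:**
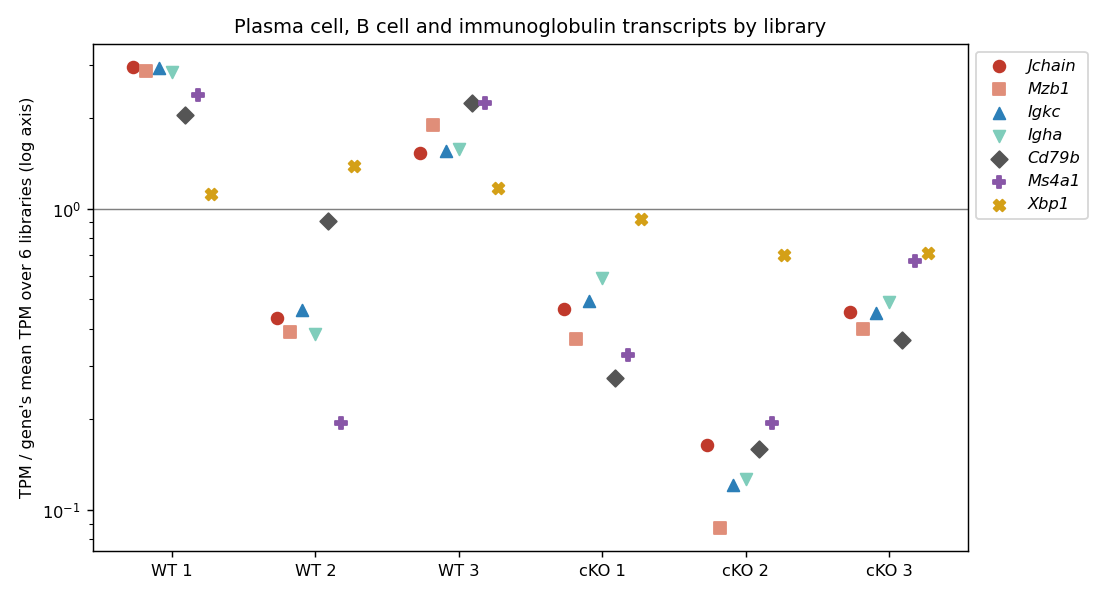
TPM of 7 genes in each library, each divided by that gene's mean over the 6 libraries (log axis), so that 1 marks the mean. *Jchain*, *Mzb1*, *Igkc* and *Igha* move as a group, with replicate 1 labelled WT highest and replicate 2 labelled cKO lowest. *Cd79b* and *Ms4a1* part from them in replicate 2 labelled WT, and *Xbp1* stays near 1 in every library.

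The pathway lists around the 9 genes had no gene at an adjusted p under 0.05 in limma. Of all 17555 genes tested, 6822 had a log2 fold change below 0. At an unadjusted p under 0.05, 6.45% of all genes tested were lower under the label cKO and 11.9% were higher. Of 25 genes of B cell receptor signalling, all tested, 12 had an unadjusted p under 0.05 and were lower under the label cKO and 0 were higher, with a median log2 fold change of -0.98. Of these 12, *Siglecg* and *Bank1* reached 1 TPM in the libraries labelled WT alone, so they passed the filter only through the label where they were higher. *Cd72*, an inhibitory co-receptor, was at 86.5, 131 and 159 TPM under the label WT and at 46.1, 31.3 and 40.1 TPM under the label cKO. Its labels did not overlap (log2 fold change -1.63, standard error 0.29; limma, adjusted p = 0.124). The most abundant genes of the list were *Cd81* and *Dapp1*, at log2 fold changes of -0.34 and -0.95, and *Cd81* is expressed by most cell types. Of the other B cell surface genes, 9 of 11 were tested, all 9 had a log2 fold change below 0, and 6 had an unadjusted p under 0.05 (median -1.42). *Cd37*, a tetraspanin of B cells and other leukocytes, was at 164, 112 and 204 TPM under the label WT and at 39.3, 23.7 and 51.4 TPM under the label cKO. *Tnfrsf13b*, the receptor TACI for B cell survival factors, had a log2 fold change of -1.85 (standard error 0.37; limma, adjusted p = 0.124).

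Of 13 transcription factors of the B lineage, 4 were lower and 1 was higher at an unadjusted p under 0.05, beside 6.45% and 11.9% of all genes tested. The median log2 fold change of the list was -0.98. With the replicate number as a block 7 were lower, beside 8.52% of all genes tested. *Ets1*, a factor shared by B, T and NK cells, was at 61.9, 61.2 and 45.5 TPM under the label WT and at 11.6, 7.21 and 8.43 TPM under the label cKO. It had the smallest adjusted p of all the lists (log2 fold change -2.52, standard error 0.27; limma, adjusted p = 0.0856). *Irf8* had a log2 fold change of -1.73 (limma, adjusted p = 0.124), and *Tcf3*, with 1 WT library at 148 TPM and the others at 41.7 and 14.0 TPM, had one of -1.43 (adjusted p = 0.353). *Ebf1*, the 1 that was higher and named after its values were seen, was at 25.8, 15.3 and 20.9 TPM under the label WT and at 43.5, 51.8 and 42.3 TPM under the label cKO (log2 fold change 1.14, adjusted p = 0.124 from limma). This factor is required for B cells, and it is also expressed outside the lineage.

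Of 12 plasma cell genes, 11 were tested, 10 had a log2 fold change below 0 (median -0.32) and 3 were lower at an unadjusted p under 0.05. Over all 17555 genes tested, 6.45% were lower at this p and 6822 had a log2 fold change below 0. *Sdc1*, the plasma cell surface marker CD138, was at 13.1, 7.73 and 12.6 TPM under the label WT and at 4.19, 2.0 and 5.82 TPM under the label cKO (log2 fold change -1.33, adjusted p = 0.164 from limma). *Derl3*, of the pathway that clears misfolded proteins, had a log2 fold change of -1.45 (limma, adjusted p = 0.194). The general secretory genes *Ssr4* and *Sec11c*, the most abundant of the list, were at log2 fold changes of -0.03 and 0.15. Of 18 genes of the unfolded protein response, to which *Xbp1* belongs, 14 had a log2 fold change below 0 (median -0.20). At an unadjusted p under 0.05, 4 of them were lower. The chaperones *Hsp90b1* and *Hspa5* were at log2 fold changes of 0.00 and -0.21, and *Sdf2l1* and *Manf*, both of the endoplasmic reticulum, at -1.42 and -0.66 (adjusted p = 0.124 and 0.191 from limma). Of 10 immunoglobulin constant regions, 9 were tested and 4 were lower at an unadjusted p under 0.05, with a median of -1.85 and a range from -3.78 (*Ighg2b*) to 0.76. *Ighg2b* was at 1537, 152 and 419 TPM under the label WT and at 84.1, 38.2 and 10.5 TPM under the label cKO, and *Ighg2c* had a log2 fold change of -3.32 (adjusted p = 0.141 and 0.211 from limma). Constant regions of close sequence share reads, so single isotypes are uncertain.

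Markers of other leukocytes had a like direction. Of all 17555 genes tested, 6822 had a log2 fold change below 0 and 6.45% were lower at an unadjusted p under 0.05. All 10 T cell markers had a log2 fold change below 0 (median -1.95) and 8 had an unadjusted p under 0.05. They summed to 967, 333 and 775 TPM under the label WT and to 216, 93.1 and 196 TPM under the label cKO, with *Cd2*, *Lck* and *Cd3e* at log2 fold changes of -2.20, -1.99 and -2.41. All 7 NK cell markers were below 0 (median -1.87, 6 at an unadjusted p under 0.05), with summed levels of 153 to 456 TPM under the label WT and 39.8 to 111 TPM under the label cKO. *Nkg7* and *Klrd1* were the most abundant of them, and *Klrk1* and *Ncr1* had log2 fold changes of -2.01 and -2.0. All 10 myeloid markers were below 0 (median -0.92, 5 at an unadjusted p under 0.05), with 2076 to 3391 TPM and 861 to 1181 TPM in sum, led by *Lyz2* and *C1qa*, and *Aif1* was at -1.54. Of the plasmacytoid dendritic cell markers, which share *Irf8*, *Spib* and *Ly6d* with the B lineage lists, 9 of 10 were tested, 8 were below 0, and 4 were lower and 1 (*Pacsin1*, 1.08, also a neuronal gene) higher at an unadjusted p under 0.05. Their sums overlapped, at 824 to 951 TPM and 839 to 925 TPM, with *Tcf4* the largest share of them and *Bst2* at -2.08. No marker of these lists was at 0 in all libraries.

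The 5 general leukocyte markers (*Ptprc*, *Cd52*, *Coro1a*, *Laptm5* and *Cd53*) summed to 2084, 702 and 1874 TPM under the label WT and to 601, 347 and 498 TPM under the label cKO. Replicate 2 labelled WT was low for them as for the B lineage genes. When each library was scaled to the mean log2 level of these 5 markers, a step chosen after the data were seen, the median over all genes tested went from 0.16 to 1.55 on the log2 scale and that of the 8 genes from -1.63 to -0.24. On that scale *Cd79b* (-1.02) and *Cd79a* (-0.63) kept no overlap between the labels, as did 0.359% of all genes tested in this direction. *Mzb1* was at -0.93 and *Jchain* at -0.55, both with overlap, while *Ms4a1* (0.07), *Blnk* (0.07), *Cd22* (0.53) and *Xbp1* (0.73) were above 0. None of the 8 had an unadjusted p under 0.05 in limma, where 0.239% of all genes tested were lower. The adjusted p-values of the 8 were 0.297 to 0.943 in limma. The part that leukocyte content and the higher rod RNA under the label cKO have in the differences of the B lineage genes was not tested. Among the markers of the sorted neurons, 8 of 10 RGC genes were tested and 2 were higher at an unadjusted p under 0.05 (*Thy1* at 0.71 and *Tubb3* at 1.01). Their median was 0.14, with *Isl1* at 0.26, and *Rbpms* (-0.41), *Pou4f1* (-0.64) and *Sncg* (-0.83) were below 0. All 10 rod markers, among them *Gnat1*, *Pdc* and *Pde6b*, were higher at an unadjusted p under 0.05 (median 1.48), beside 11.9% of all genes tested.

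**Figure D4:**
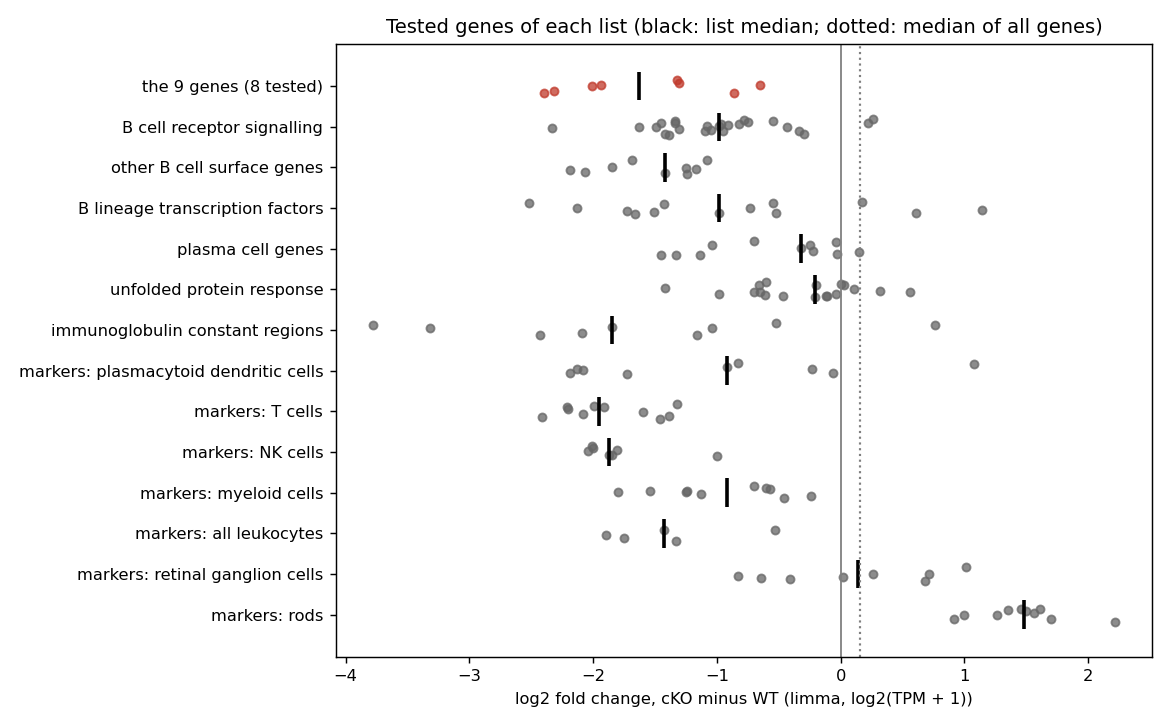
Log2 fold change, cKO minus WT, of each tested gene of the lists (points; vertical scatter has no meaning) with the list median (black bar) and the median of all genes tested, 0.16 (dotted line). The 8 tested genes (red) lie between -2.40 and -0.65 beside the T and NK cell markers. Of the 18 genes of the unfolded protein response 14 lie below 0 (median -0.20), and rod markers lie above 0.

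In ATAC-seq the comparison holds, per region, the authors' log2 mean normalised reads of each label, without replicate values, so no test could be run. At *Xbp1* the region chr11:5520560-5522224 (GRCm38, 1665 bp) covered the start of the gene (chr11:5520641-5525993), from -81 to 1583. Its group value was 5.82 under the label WT and 3.71 under the label cKO, a log2 difference of -2.11 (56.5 against 13.1 normalised reads). At *Jchain* the region chr5:88519200-88519455 (256 bp) lay 354 to 609 bp beyond the far end of the gene. Its group value was 2.82 under the label WT and -0.15 under the label cKO, a log2 difference of -2.97 (7.06 against 0.901 normalised reads), and 75.3% of all regions had a higher WT value. Both regions had a difference under -1, as had 59.6% of all 16600 regions, and 38.1% of all regions had a lower difference than *Xbp1* and 18.5% a lower one than *Jchain*. A lower group value under the label cKO was thus shared with most regions of the table.

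The start of *Xbp1* and that of *Jchain* are shown because peaks were called over them. Capitals mark the bases inside the compared region for *Xbp1* (chr11:5520391-5520690, plus strand) and those inside a peak of replicate 2 labelled cKO for *Jchain* (chr5:88527848-88528147, minus strand).
*Xbp1*: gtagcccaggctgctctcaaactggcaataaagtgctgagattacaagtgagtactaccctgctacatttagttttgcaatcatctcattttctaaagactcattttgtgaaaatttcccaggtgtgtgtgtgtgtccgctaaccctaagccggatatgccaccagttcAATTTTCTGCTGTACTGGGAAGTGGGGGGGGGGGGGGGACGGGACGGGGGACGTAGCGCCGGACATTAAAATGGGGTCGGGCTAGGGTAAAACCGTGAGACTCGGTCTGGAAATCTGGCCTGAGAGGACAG
*Jchain*: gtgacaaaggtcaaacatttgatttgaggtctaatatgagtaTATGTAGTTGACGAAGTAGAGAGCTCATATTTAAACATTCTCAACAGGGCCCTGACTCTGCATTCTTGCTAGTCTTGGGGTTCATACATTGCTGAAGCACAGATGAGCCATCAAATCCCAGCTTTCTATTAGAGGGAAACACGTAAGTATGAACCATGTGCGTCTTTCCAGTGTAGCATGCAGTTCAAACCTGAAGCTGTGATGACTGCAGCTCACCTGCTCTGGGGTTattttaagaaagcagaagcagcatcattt
Both are written 5′ to 3′ along the gene from 250 bases before its start, from RefSeq on GRCm38.p6, and neither held any of the 5 motifs searched.

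The 2 compared regions span the peaks called there in the libraries labelled WT, and no peak of a library labelled cKO overlapped them. Their lower group values and these peak calls are therefore not separate observations. At *Xbp1* a peak lay in replicates 1 (-81 to 740) and 2 (95 to 1583) labelled WT and in neither library labelled cKO. At *Jchain* both libraries labelled WT had the peak beyond the far end and neither labelled cKO had it, whereas replicate 2 labelled cKO had a peak of 229 bp over the start, from -208 to 20. Replicate 1 labelled WT had a peak at *Cd22*, from -503 to -262 relative to the end of the gene's span, and both libraries labelled cKO had peaks at *Cd79a*, 2 in replicate 1 and 1 in replicate 2, none of them at the same place in both. Of the 9 genes, 3, 2, 1 and 2 had a peak within 1000 bp of an end in replicates 1 and 2 labelled WT and 1 and 2 labelled cKO, beside 30.6%, 25.1%, 10.6% and 11.5% of 49997 genes. *Cd79b*, *Ms4a1*, *Pax5*, *Blnk* and *Mzb1* had none in any library. Within 3000 bp, 2 further regions lay beyond the far end of *Cd79a*, with log2 differences of -2.77 (chr7:24904102-24904421) and -2.21 (chr7:24903211-24903776).

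A region within 1000 bp of an end was present for 2 of the 9 genes (22.2%) and for 20.6% of all genes with a position. The lists differed more among themselves. Regions were at 16 of 18 genes of the unfolded protein response (88.9%) and at 9 of 12 plasma cell genes (75%), of which *Derl3*, *Sdc1*, *Ssr4* and *Sec11c* are examples. They were at 4 of 25 genes of B cell receptor signalling (16.0%), namely *Cd81*, *Prkcb*, *Bcl10* and *Malt1*, and at none of the 10 immunoglobulin constant regions or 5 leukocyte markers. *Jchain*, among the most abundant RNAs in replicate 1 labelled WT, thus had no compared region at its start. *Igkc* had none near either end of its listed span, which holds the constant region alone.

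**Figure D5:**
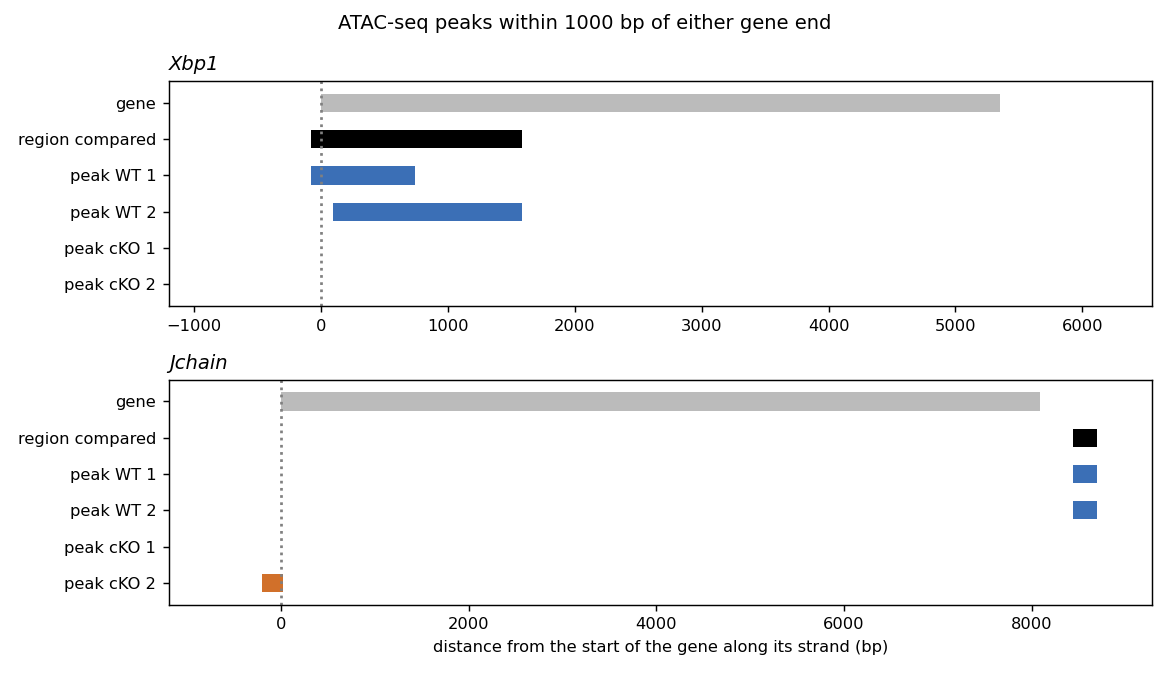
ATAC-seq regions and peaks at *Xbp1* (top) and *Jchain* (bottom), in bp from the start of the gene along its strand (dotted line), to scale: the gene (grey), the region in the authors' comparison (black) and peaks called in single libraries labelled WT (blue) and cKO (orange). The peaks over *Xbp1* and beyond the far end of *Jchain* are in both WT libraries and in neither cKO library, and a peak over the *Jchain* start is in replicate 2 labelled cKO alone.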

How the data were processed

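RNA-seq compared 3 libraries labelled WT with 3 labelled cKO, and ATAC-seq compared 2 with 2, grouped by the sample titles. The genes and the lists around them were chosen with earlier results of these data known. The authors trimmed reads with Trimmomatic, quantified them with Salmon 1.0.0 and tximport on the GENCODE annotation, and deposited TPM per gene and library. ATAC-seq reads were aligned with Bowtie 2 2.3.5.1 to GRCm38, and MACS2 2.2.5 is named in the submitters' processing notes. The authors deposited peak positions per library and, from DiffBind, log2 mean normalised reads per label and region. Their own fold changes, p-values and FDR (DESeq2 1.26.0 for RNA, DiffBind for ATAC) were not used.

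Genes that reached 1 TPM in 3 or more libraries were compared as log2(TPM + 1) with limma 3.58.1 in R 4.3.3 (empirical Bayes with a trend, Benjamini-Hochberg, threshold 0.05), after a check on simulated data. For genes of low TPM this scale shrinks the fold change. Single genes were also tested with exact two-sided permutations, which cannot go below p = 0.1 with 3 against 3. Same-numbered RNA-seq libraries deviated together (correlations of 0.334, 0.101 and 0.425 across genes). Libraries of unlike number were not compared in this way, so these values do not show that the numbers pair the samples. The labels do not state a pairing, and the block is given as an alternative alone. The design text calls the replicates biological, and p-values measure the spread between these pooled samples. All 9 genes were named. From each list the 2 genes of highest mean TPM and the 2 of smallest unadjusted p were named, and others where said. *Siglecg*, *Bank1*, *Iglc1*, *Ighg1*, *Rbpms*, *Pou4f1* and *Sncg* were named after their values were seen. Of the genes under this rule, 2 are not reported here. Gene ends came from RefSeq on GRCm38.p6, and positions are counted from 1. A lower region had a log2 difference under -1. Alternatives were a pseudocount of 0.1, no filter, a minimum mean of 5 TPM, median-of-ratios scaling, a block for the replicate number, limma without a trend, leaving out each library, windows of 3000 bp or at the start alone, a difference under -2, and 50% of a peak inside the window. Leaving out replicate 2 of both labels and scaling to leukocyte markers were chosen after the data were seen. Python 3.11.15 with pandas 2.3.3 and scipy 1.17.1 was used, and matplotlib 3.10.9 for figures. Protein sequences were not used here.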

Additional observations from a re-analysis of the deposited data

How the results depend on the processing

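The 8 tested genes had 0 calls at an adjusted p under 0.05 in every alternative, and their smallest adjusted p in limma ran from 0.0585 (replicate number as a block) to 0.469 (without cKO replicate 2). With each library left out in turn, 3 to 7 of the 8 were lower at an unadjusted p under 0.05 (6 with all libraries). The share of all genes tested was then 3.97% to 7.90% (6.45% with all). In these settings 4 to 8 of the 8 had no overlap between the labels (4 with all), beside 8.55% to 14.3% of all genes tested (7.18% with all). The median log2 fold change of the 8 was -2.49 to -1.29 (-1.63 with all). The lowest count, 3, came without cKO replicate 2, and the count of 8 without overlap and the median of -2.49 came without WT replicate 2. Without replicate 2 of both labels, 8 had no overlap and 6 had an unadjusted p under 0.05, beside 13.6% and 6.51% of all genes tested. With the replicate block, 7 of 8 were lower at an unadjusted p under 0.05 with *Ms4a1* gained, beside 8.52% of all genes tested. The median of the 8 was then -1.63. With this block none of the list genes had an adjusted p under 0.05. At an unadjusted p under 0.05, the count of lower genes went from 4 to 7 for the B lineage transcription factors. It went from 6 to 9 for the other B cell surface genes and from 12 to 17 for B cell receptor signalling. The other lists changed less. Over the whole table, 1 gene against 0 was lower at an adjusted p under 0.05 and 1495 against 1133 at an unadjusted one. Scaling by the median of ratios moved the median of all genes from 0.16 to 0.01, that of the 8 genes to -1.79 and the share of all genes lower at an unadjusted p under 0.05 from 6.45% to 9.54%.

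After scaling to leukocyte markers, 0 of the 8 had an unadjusted p under 0.05, where 0.239% of all genes tested were lower. Of the 8, 2 were lower without overlap, beside 0.359% of all genes tested. The median of the 8 was -0.24, and *Ms4a1* (0.07), *Cd22* (0.53), *Blnk* (0.07) and *Xbp1* (0.73) turned to values above 0. This scaling sets the leukocyte markers equal by its construction, and the median of all genes was then 1.55. Over the whole table, 0 genes were lower at an adjusted p under 0.05 as tested, 8 with no filter on low values and 12 with leukocyte scaling, none of them among the 9. At an unadjusted p under 0.05, 1133 genes were lower as tested, 697 without cKO replicate 2 and 42 with leukocyte scaling. Regions lower under the label cKO numbered 4 with a window of 3000 bp and 1 at the start of the gene alone, against 2 as given, and replicate 2 labelled WT had peaks at 4 of the genes with 3000 bp, against 2. These counts moved with the length searched. No paired analysis was possible because, in ATAC-seq, each label has a single value per region. Unknown depth and 3 libraries per label limit what can be told apart, most for *Pax5*, *Cd22* and *Ms4a1*.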
